A study of Homo sapiens with 8 samples.

Results

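The HOX genes encode homeodomain transcription factors that set the identity of tissues along the head-to-tail axis, and in mammals they sit in the HOXA, HOXB, HOXC and HOXD clusters, on human chromosomes 7, 17, 12 and 2. All rows of the deposited count table whose symbol was HOX, a cluster letter and a position number were taken, which gave 39 of 32803 rows: 11 in HOXA, 10 in HOXB, 9 in HOXC and 9 in HOXD. Members with low numbers lie at the 3′ end of a cluster and are switched on early and towards the head, and members with high numbers lie at the 5′ end and act towards the tail. Polycomb complexes keep silent HOX genes off, trithorax and MLL complexes keep active ones on, and retinoic acid induces the 3′ genes. In the Müllerian duct, which forms the female reproductive tract, HOXA9, HOXA10, HOXA11 and HOXA13 are known to mark successive segments from oviduct to upper vagina.

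The RNA-seq counts came from 8 libraries of UWB1.289, a human ovarian carcinoma line that carries a BRCA1 mutation, and of its BRCA1-complemented form UWB1.289+BRCA1. BRCA1 acts in homologous recombination, and cells without it are sensitive to inhibitors of poly(ADP-ribose) polymerase (PARP). The 4 groups, of 2 libraries each, were resistant BRCA1-deficient cells (the PARP inhibitor-resistant derivative, passage 56), parental BRCA1-deficient cells (passage 29), resistant BRCA1-proficient cells (passage 45) and parental BRCA1-proficient cells (passage 10). They are called resistant deficient, parental deficient, resistant proficient and parental proficient below, and all were cultured without drug. Each resistant group is 1 derivative line at a later passage than its parent, so resistance, passage and the history of that line cannot be told apart. Whether a derivative is a clone was not given in the sources used here.

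Levels are given as CPM, the count of a gene relative to the TMM-scaled total of its library, and fold changes are log2 values ± SE from edgeR's quasi-likelihood fit of all 4 groups, called where the adjusted p was under 0.05. Libraries held 24094821 to 34394107 counts, so that 1 count equalled 0.0287 to 0.0416 CPM. BRCA1 itself averaged 34.7 ± 0.0847 CPM in resistant deficient, 35.6 ± 0.647 CPM in parental deficient, 2271 ± 134 CPM in resistant proficient and 202 ± 14.4 CPM in parental proficient cells (SD, n = 2 each), which follows the labels of BRCA1 state. Within the proficient label BRCA1 was also higher in the resistant derivative, by 3.49 ± 0.07 (edgeR adjusted p = 1.06e-10). In deficient cells it did not pass (-0.04 ± 0.07, edgeR adjusted p = 0.714). Resistant and parental proficient cells therefore also differ in BRCA1 level, whose part in any HOX result was not tested. Of the 15 Müllerian and ovarian carcinoma markers, PAX8 and EPCAM were high in every library (199 to 303 CPM and 558 to 807 CPM), PAX2 was at 0 throughout, and WT1 had 0 to 8 counts outside the resistant proficient libraries, which held 226 and 220. The 11 markers of leukocytes, endothelium and fibroblasts summed to 73.9 and 65.9 CPM in resistant deficient, 65.5 and 64.4 CPM in parental deficient, 13.6 and 13.9 CPM in resistant proficient and 20.9 and 19.0 CPM in parental proficient libraries. Most of that sum was CDH5 and CD68 in the deficient cells. The fibroblast genes DCN and LUM were at 0 in every library but those of parental proficient cells, which held at most 2 counts of either. The part of these markers in any HOX result was not tested.

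HOX RNA was scarce in all groups. The 39 genes summed to 121 ± 5.71 CPM in resistant deficient, 91.3 ± 1.12 CPM in parental deficient, 166 ± 4.41 CPM in resistant proficient and 85.4 ± 1.97 CPM in parental proficient cells (SD, n = 2). Of the 39, 27 passed the filter on low counts and were tested, 9 of HOXA, 8 of HOXB, 2 of HOXC and 8 of HOXD. The other 12 were HOXA6, HOXA9, HOXB1, HOXB5, HOXC5, HOXC6, HOXC8 to HOXC12 and HOXD12, of which HOXB1 and HOXC9 had no count in any library. HOXA9, the oviduct member of the Müllerian series, had 0 to 6 counts per library. A count of 0 in a library allows a level of up to 0.0861 to 0.125 CPM (3 counts), a limit of counting error only. In bulk RNA, fewer cells expressing a gene and less RNA per cell cannot be told apart.

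**Figure D1:**
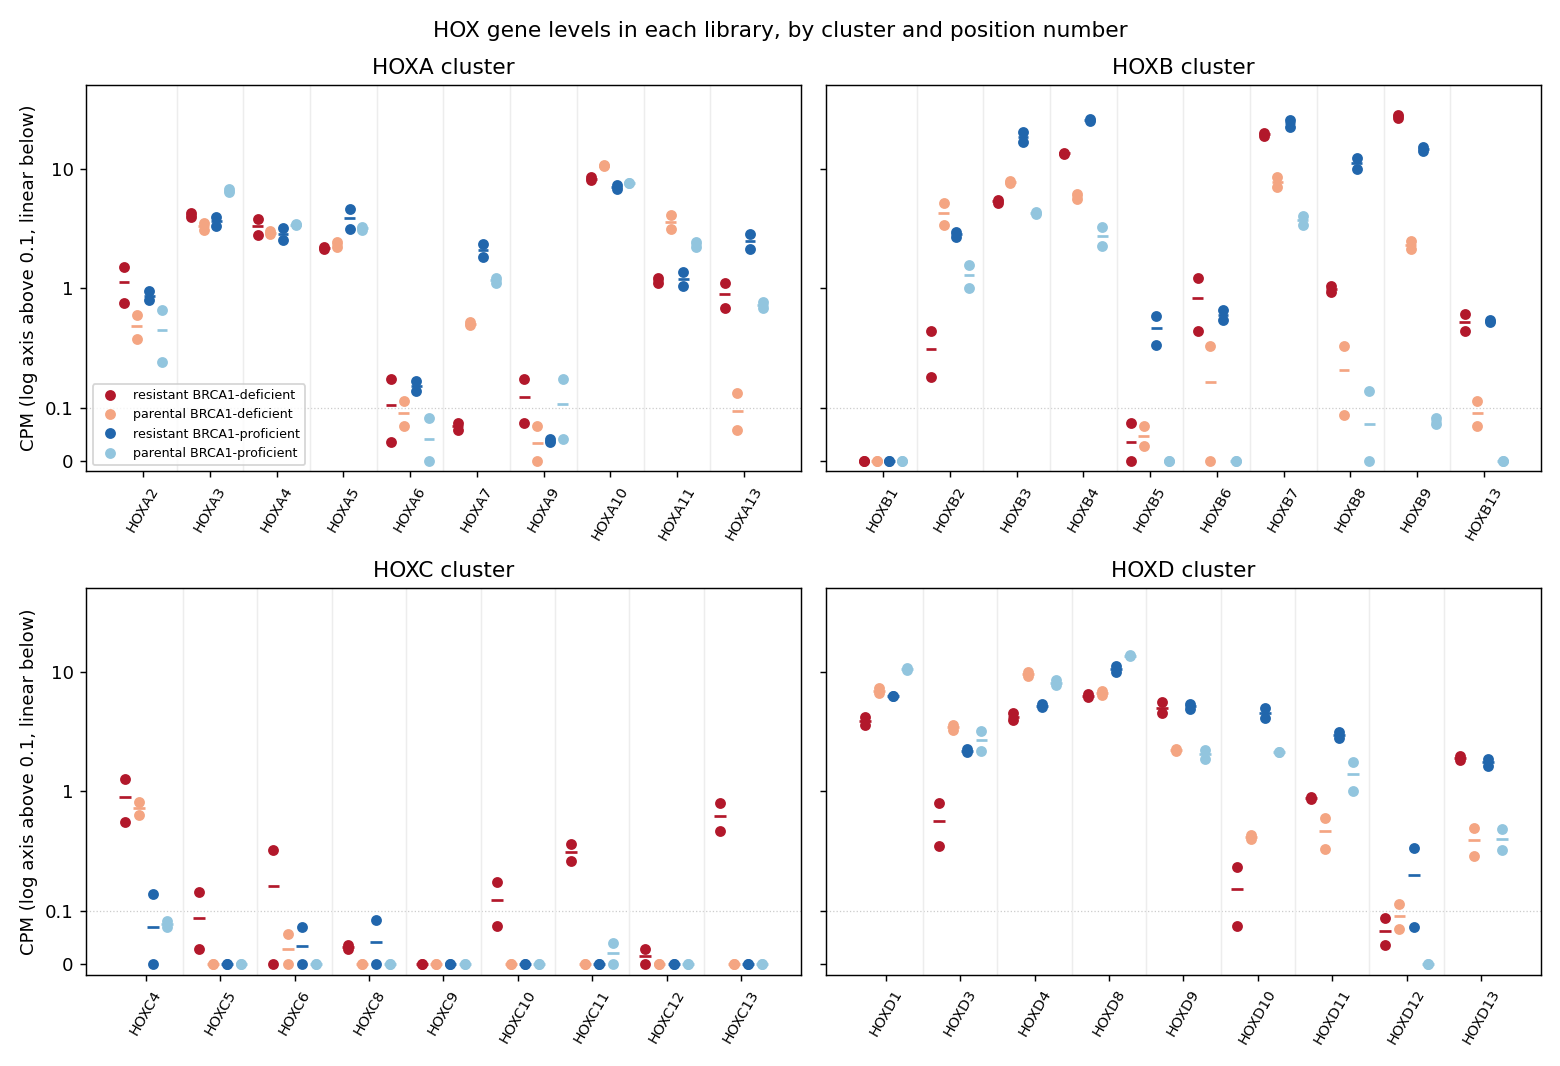
Levels of 38 of the 39 HOX genes in each of the 8 libraries, in CPM on an axis that is logarithmic above 0.1 and linear below it, by cluster and position number; points are libraries and short lines are group means (n = 2). HOXB4, HOXB7, HOXB8 and HOXB9 stand above their parental levels in both derivatives, and 8 of the 9 HOXC genes are below 1 CPM in every library.

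The clusters differed in how much of this RNA they held. Summed HOXB levels were 68.1 ± 2.63 CPM in resistant deficient and 28.4 ± 2.63 CPM in parental deficient cells, and 97.8 ± 3.60 CPM in resistant proficient and 12.1 ± 0.473 CPM in parental proficient cells. Summed HOXA levels stayed within a narrow band, at 27.6 ± 2.26 CPM in resistant deficient, 32.0 ± 0.928 CPM in parental deficient, 29.3 ± 1.75 CPM in resistant proficient and 32.3 ± 0.290 CPM in parental proficient cells. Summed HOXD levels were 23.0 ± 0.214 CPM in resistant deficient and 30.2 ± 0.491 CPM in parental deficient cells, and 38.8 ± 1.03 CPM in resistant proficient and 40.9 ± 2.19 CPM in parental proficient cells. HOXB thus gave the 1 summed level that was above its parent in both resistant derivatives with a gap many times the spread between libraries, and HOXC summed to at most 2.26 ± 1.03 CPM, in resistant deficient cells. Per kilobase of transcript, the scale on which genes can be compared, HOXB made up 54.9% ± 0.391 of all HOX signal in resistant deficient and 29.4% ± 2.95 in parental deficient cells, and 56% ± 0.00624 in resistant proficient and 12.9% ± 0.543 in parental proficient cells.

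**Figure D2:**
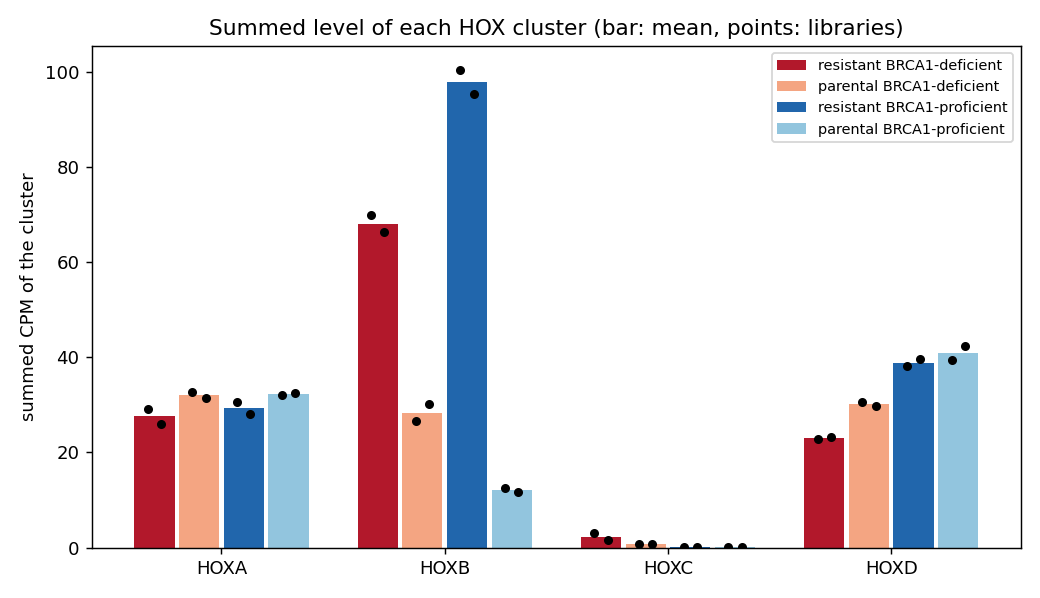
Summed CPM of the members of each HOX cluster, with bars for the group mean and points for the 2 libraries. The HOXB bars reach 68.1 CPM in resistant deficient against 28.4 CPM in parental deficient cells, and 97.8 CPM in resistant proficient against 12.1 CPM in parental proficient cells, while the HOXA bars lie between 27.6 and 32.3 CPM.

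The member that led the order also changed. Per kilobase, HOXB7 (14.1 CPM per kb), HOXB9 (10.6) and HOXB4 (3.57) were highest in resistant deficient cells, against HOXD4 (6.54 CPM per kb), HOXB7 (5.66) and HOXA10 (4.17) in parental deficient cells. In resistant proficient cells the highest were HOXB7 (17.4 CPM per kb), HOXB4 (6.79) and HOXB8 (6.06), against HOXD8 (7.10 CPM per kb), HOXD4 (5.55) and HOXD1 (5.32) in parental proficient cells. Both parental lists were thus led by a HOXD gene with a middle position number, HOXD4 or HOXD8, and both resistant lists by HOXB7.

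Among BRCA1-deficient cells, 9 of the 27 tested members rose in the resistant derivative and 9 fell (33.3% and 33.3%), beside 28.9% of all 16221 genes tested that were higher and 27% that were lower. In BRCA1-proficient cells 14 rose and 5 fell (51.9% and 18.5%), beside 25.9% higher and 27.8% lower of all genes tested. The median log2 fold change of all genes was 0.03 in the deficient and -0.00 in the proficient comparison. Members had to pass a filter on low counts in order to be tested, and a member that passed only through its higher group had to differ, so the shares describe the 27 and not all 39. By position, the 10 tested members with numbers 9 to 13 gave 6 rises and 3 falls in resistant deficient cells, and 7 rises and 1 fall in resistant proficient cells. HOXC13, which passed the filter only through its resistant deficient libraries, is among those 6 rises and among the 9 of the 27. Of the 3 falls, the calls of HOXA10 and HOXD10 were lost in 12 and 9 of 16 alternatives. The 7 tested members with numbers 1 to 3 gave 0 rises by edgeR (1 at an unadjusted p under 0.05, 0 by DESeq2) and 4 falls in resistant deficient cells, and 2 rises and 2 falls in resistant proficient cells.

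**Figure D3:**
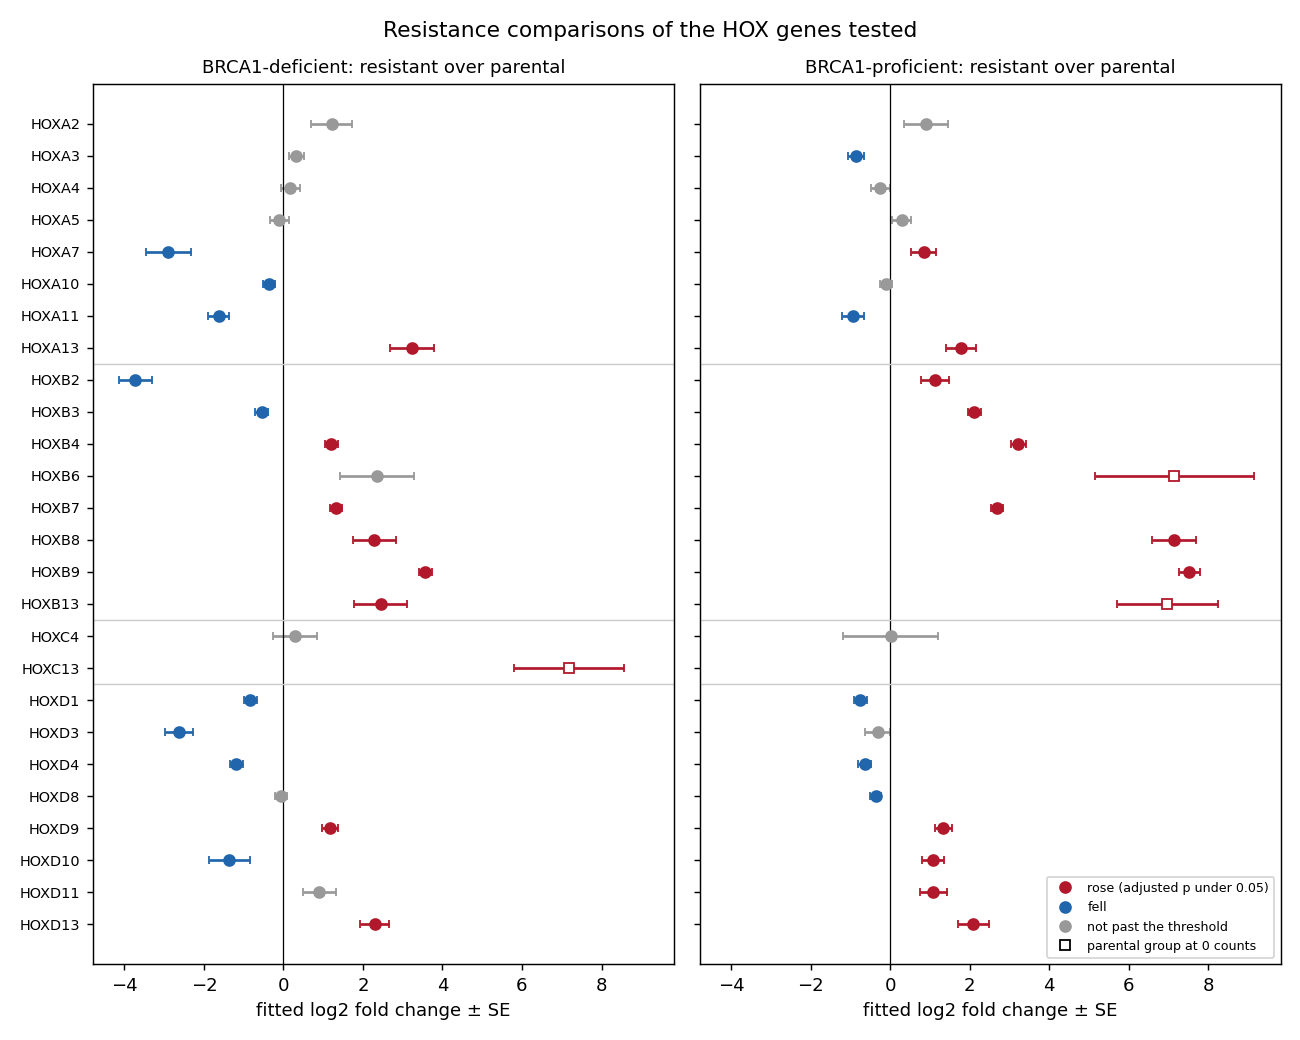
Fitted log2 fold change ± SE of resistant over parental cells for 26 of the 27 tested HOX genes, with the deficient comparison on the left and the proficient one on the right; red points rose, blue points fell and grey points did not pass the adjusted p of 0.05. Open squares mark genes whose parental group was at 0 counts, where the fitted value depends on the prior count and is no bound, and all 8 tested HOXB members are red on the right while HOXB2 and HOXB3 are blue on the left.

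HOXB4, HOXB7, HOXB8, HOXB9 and HOXB13 rose in both derivatives. HOXB9, a thoracic patterning gene, had 28.2 and 26.3 CPM in resistant deficient cells, against 2.11 and 2.47 CPM in parental deficient cells. In the proficient line it had 15.1 and 14 CPM in resistant proficient cells, against 0.0806 and 0.0691 CPM in parental proficient cells, which were 2 counts in each parental library. HOXB9 was thus near the detection limit in 1 parent and above 10 CPM in both derivatives, with log2 fold changes of 3.57 ± 0.16 (edgeR adjusted p = 5.05e-08) in deficient and 7.53 ± 0.27 (edgeR adjusted p = 4.7e-09) in proficient cells. HOXB7, which is known to be raised in several carcinomas, had 19.9 and 18.8 CPM in resistant deficient cells, against 7.07 and 8.43 CPM in parental deficient cells, a change of 1.32 ± 0.15 (edgeR adjusted p = 2.67e-05). In proficient cells it had 22.4 and 25.2 CPM in resistant proficient cells, against 3.39 and 3.98 CPM in parental proficient cells, a change of 2.69 ± 0.16 (edgeR adjusted p = 1.65e-07). Each resistant library held more HOXB7 than any parental one. HOXB4, known for expanding blood stem cells, had 13.3 and 13.6 CPM in resistant deficient cells, against 5.59 and 6.08 CPM in parental deficient cells, a change of 1.20 ± 0.16 (edgeR adjusted p = 0.000105). In proficient cells it had 25.8 and 25.2 CPM in resistant proficient cells, against 3.23 and 2.25 CPM in parental proficient cells, a change of 3.23 ± 0.18 (edgeR adjusted p = 9.52e-08).

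HOXB8, which blocks the maturation of myeloid cells when overexpressed, had 0.936 and 1.04 CPM in resistant deficient cells, against 0.329 and 0.0861 CPM in parental deficient cells, a change of 2.28 ± 0.54 (edgeR adjusted p = 0.00431), which came to 1.55 (adjusted p = 0.0502) without parental deficient replicate 2 and 3.46 without replicate 1. In proficient cells it had 12.3 and 9.83 CPM in resistant proficient cells, against 0 and 0.138 CPM in parental proficient cells, a change of 7.14 ± 0.54 (edgeR adjusted p = 1.08e-06). The parental proficient libraries held 0 and 4 counts, and the fitted change without replicate 2 was 11.34, a value that depends on the prior count. HOXB13, the tail-most member of the cluster and known in prostate, had 0.612 and 0.434 CPM in resistant deficient cells, against 0.0658 and 0.115 CPM in parental deficient cells, a change of 2.44 ± 0.66 (edgeR adjusted p = 0.0101). That call was lost without parental deficient replicate 1 (2.13), without parental deficient replicate 2 (2.87), without resistant deficient replicate 1 (2.16) and with DESeq2. In proficient cells HOXB13 had 28 counts in the resistant group and 0 in the parental group, at least 9.49-fold higher against a floor of 3 counts over the group (edgeR adjusted p = 0.00101). HOXB6 likewise had 32 counts in resistant proficient and 0 in parental proficient cells, at least 10.8-fold higher (edgeR adjusted p = 0.0122), and its call was lost without parental proficient replicate 2 (adjusted p = 0.0622). In deficient cells HOXB6 had 1.22 and 0.434 CPM in resistant deficient cells, against 0.329 and 0 CPM in parental deficient cells. The change of 2.35 ± 0.93 missed the threshold (edgeR adjusted p = 0.0531), which it passed in 6 of 15 alternatives. These were the replicate block (2.42, adjusted p = 0.0198), the GC trend removed (2.18), no filter on low counts (2.33), library totals alone (2.35), and the fits without resistant deficient replicate 2 (2.91) and without parental deficient replicate 1, which left a parental library at 0. The untested HOXB5 had 25 counts in resistant proficient against 0 in parental proficient cells, at least 8.47-fold higher, and 2 counts in resistant deficient against 3 in parental deficient cells.

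The 3′ members HOXB2 and HOXB3, which pattern the hindbrain, went opposite ways in the derivatives. HOXB2 had 0.18 and 0.434 CPM in resistant deficient cells, against 3.36 and 5.11 CPM in parental deficient cells, a change of -3.72 ± 0.41 (edgeR adjusted p = 2.44e-05). In proficient cells HOXB2 had 2.67 and 2.96 CPM in resistant proficient cells, against 1.57 and 1.0 CPM in parental proficient cells, a change of 1.14 ± 0.35 (edgeR adjusted p = 0.0176). It was thus the lowest of the 4 groups in resistant deficient cells, and its rise in proficient cells was lost without parental proficient replicate 2 (0.83) or resistant proficient replicate 2 (1.10). HOXB3 had 5.47 and 5.18 CPM in resistant deficient cells, against 7.6 and 7.92 CPM in parental deficient cells, a change of -0.54 ± 0.16 (edgeR adjusted p = 0.0131) that was lost without parental deficient replicate 2 (-0.54, adjusted p = 0.057). In proficient cells HOXB3 had 20.3 and 16.7 CPM in resistant proficient cells, against 4.19 and 4.36 CPM in parental proficient cells, a change of 2.11 ± 0.16 (edgeR adjusted p = 1.14e-06). In resistant deficient cells the direction therefore changed along the cluster between HOXB3 and HOXB4, and in resistant proficient cells all 8 tested HOXB members rose.

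RNAs and genes at the borders of the cluster were read beside it. HOXB-AS1, an antisense RNA of the HOXB2 and HOXB3 stretch, had 0 and 0.0868 CPM in resistant deficient cells, against 0.658 and 1.23 CPM in parental deficient cells, a change of -4.20 ± 0.80 (edgeR adjusted p = 0.00108). In proficient cells it had 1.32 and 0.708 CPM in resistant proficient cells, against 0.443 and 0.519 CPM in parental proficient cells, a change of 1.08 ± 0.56 that did not pass (edgeR adjusted p = 0.129). SKAP1, an adaptor gene beyond the 3′ end of HOXB, had 0.252 and 0.145 CPM in resistant deficient cells, against 1.48 and 2.12 CPM in parental deficient cells, a change of -3.20 ± 0.43 (edgeR adjusted p = 0.000111). HOXB-AS1 and SKAP1 thus fell in resistant deficient cells, as did HOXB2 and HOXB3 beside them. SKAP1 did not pass in proficient cells (0.24 ± 0.35, edgeR adjusted p = 0.585). CALCOCO2, an autophagy receptor gene on the 5′ side, rose by less, with 0.22 in resistant deficient (edgeR adjusted p = 0.0339) and 0.20 in resistant proficient cells (edgeR adjusted p = 0.042). Of all 19 neighbouring genes listed for the 4 clusters, 16 were tested, and 4 rose and 6 fell in resistant deficient cells (25% and 37.5%, beside 28.9% and 27% of all genes tested). In resistant proficient cells 8 rose and 4 fell (50% and 25%, beside 25.9% and 27.8%). How the counting treated strand is not given in the sources used here, so reads of a HOX gene and of an antisense partner cannot be told apart.

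The paralogs HOXA13 and HOXD13, which shape digits and the hindgut and urogenital outlet, rose in both derivatives. HOXA7 and HOXD10 fell in 1 derivative and rose in the other. Their promoters are shown because these pairs moved together, for comparison of the letters just before the gene start. RefSeq on GRCh38.p14 gave 250 bases before and 50 after a gene start for 20 of the 39 members, in 27 promoters, and these stretches are on chr7:27200042-27200341 (minus strand, HOXA13), chr2:176092471-176092770 (plus strand, HOXD13), chr7:27156626-27156925 (minus strand, HOXA7) and chr2:176116528-176116827 (plus strand, HOXD10). Capitals mark the CCAAT box and the E box CACGTG, each searched on both strands, so that CCAAT on the other strand reads ATTGG.
HOXA13: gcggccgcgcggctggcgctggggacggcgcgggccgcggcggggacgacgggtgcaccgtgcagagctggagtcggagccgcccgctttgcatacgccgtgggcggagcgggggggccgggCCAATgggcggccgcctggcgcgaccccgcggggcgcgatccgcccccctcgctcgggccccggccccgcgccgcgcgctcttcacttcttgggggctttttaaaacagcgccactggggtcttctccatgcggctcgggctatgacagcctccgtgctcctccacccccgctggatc
HOXD13: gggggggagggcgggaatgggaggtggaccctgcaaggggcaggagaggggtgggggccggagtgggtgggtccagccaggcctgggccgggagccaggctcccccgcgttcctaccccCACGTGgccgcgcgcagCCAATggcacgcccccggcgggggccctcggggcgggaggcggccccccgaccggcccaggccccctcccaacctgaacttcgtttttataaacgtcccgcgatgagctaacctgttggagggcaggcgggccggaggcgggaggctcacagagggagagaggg
HOXA7: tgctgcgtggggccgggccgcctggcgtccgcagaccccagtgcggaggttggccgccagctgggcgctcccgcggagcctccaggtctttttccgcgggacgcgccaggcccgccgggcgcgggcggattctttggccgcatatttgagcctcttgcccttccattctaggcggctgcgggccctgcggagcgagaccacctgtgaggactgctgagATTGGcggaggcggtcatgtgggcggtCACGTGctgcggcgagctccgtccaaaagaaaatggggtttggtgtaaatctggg
HOXD10: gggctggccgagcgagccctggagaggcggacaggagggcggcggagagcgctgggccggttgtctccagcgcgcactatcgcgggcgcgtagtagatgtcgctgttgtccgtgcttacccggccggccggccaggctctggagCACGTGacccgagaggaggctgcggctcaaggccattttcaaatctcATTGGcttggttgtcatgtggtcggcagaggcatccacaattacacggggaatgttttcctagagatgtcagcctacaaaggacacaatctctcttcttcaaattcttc
The 4 stretches each hold 1 CCAAT, and all but HOXA13 hold 1 CACGTG. The letters CCAAT were found in 18 of the 27 HOX promoters (66.7%), beside 34.6% of 35116 promoters of the same length, and CACGTG in 9 (33.3%), beside 7.26%. The TATA box TATAAA was found in 18.5% beside 11.5%, and the HOX-PBX composite letters TGATTNAT in 7.41% beside 2.82%, both also on either strand. HOX promoters had a median of 22 CpG dinucleotides, beside 14 for all promoters, and HOXA13 held the most, 44. These shares cover the clusters unevenly. HOXC4 and HOXC5 gave the same stretch, so that 26 of the 27 are distinct and 17 of those hold CCAAT, HOXA3 alone gave 7, of which 1 holds CCAAT, and HOXB1, which had no count, was the 1 HOXB promoter. A match of letters is a description of the sequence.

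HOXA13 had 0.684 and 1.1 CPM in resistant deficient cells, against 0.132 and 0.0574 CPM in parental deficient cells, a change of 3.23 ± 0.55 (edgeR adjusted p = 0.000511). In proficient cells it had 2.85 and 2.12 CPM in resistant proficient cells, against 0.685 and 0.761 CPM in parental proficient cells, a change of 1.78 ± 0.37 (edgeR adjusted p = 0.00196). HOXD13 had 1.84 and 1.97 CPM in resistant deficient cells, against 0.493 and 0.287 CPM in parental deficient cells, a change of 2.29 ± 0.37 (edgeR adjusted p = 0.000383). Parental deficient libraries held only 4 and 2 counts of HOXA13. HOXD13 in proficient cells had 1.63 and 1.87 CPM in resistant proficient cells, against 0.323 and 0.484 CPM in parental proficient cells, a change of 2.09 ± 0.39 (edgeR adjusted p = 0.000858). Both derivatives therefore held 4-fold or more of the parental HOXD13 level.

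HOXA7, a trunk member, had 0.072 and 0.0578 CPM in resistant deficient cells, against 0.493 and 0.516 CPM in parental deficient cells, a change of -2.90 ± 0.57 (edgeR adjusted p = 0.00129). In proficient cells HOXA7 had 2.32 and 1.83 CPM in resistant proficient cells, against 1.21 and 1.11 CPM in parental proficient cells, a change of 0.85 ± 0.32 (edgeR adjusted p = 0.0418). The fall rested on 4 counts in resistant deficient against 33 in parental deficient cells and was called in all 16 alternatives. The rise was lost in 9 of 16 alternatives, among them DESeq2, the replicate block and removal of the GC trend, with values of 0.71 to 1.04 when a proficient library or parental deficient replicate 1 was left out. HOXD10, a trunk and limb gene that is also known to restrain cell migration, had 0.072 and 0.231 CPM in resistant deficient cells, against 0.428 and 0.402 CPM in parental deficient cells, a change of -1.36 ± 0.51 (edgeR adjusted p = 0.0423). Its call was lost in 9 of 16 alternatives, among them the fits without resistant deficient replicate 1 (-0.86), either parental deficient replicate (-1.32 and -1.43), either parental proficient replicate (-1.39 and -1.36) and resistant proficient replicate 2 (-1.39), and the change without resistant deficient replicate 2 was -2.48. In proficient cells HOXD10 had 4.09 and 5.0 CPM in resistant proficient cells, against 2.14 and 2.14 CPM in parental proficient cells, a change of 1.08 ± 0.28 (edgeR adjusted p = 0.00725), which was lost without resistant proficient replicate 2 (0.97). In all 8 libraries the proficient levels of HOXA7 and HOXD10 stood above the deficient ones.

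HOXA11 fell in both derivatives. This gene, the uterine and cervical member of the Müllerian series, had 1.22 and 1.1 CPM in resistant deficient cells, against 4.08 and 3.1 CPM in parental deficient cells, a change of -1.62 ± 0.27 (edgeR adjusted p = 0.000399). In proficient cells HOXA11 had 1.35 and 1.04 CPM in resistant proficient cells, against 2.42 and 2.21 CPM in parental proficient cells, a change of -0.94 ± 0.28 (edgeR adjusted p = 0.0149) that was lost without parental proficient replicate 1 (-0.84), without resistant proficient replicate 2 (-0.73) and with DESeq2. HOXA10, the uterine member, was the most abundant HOXA gene per kilobase in every group. It had 8.5 and 7.98 CPM in resistant deficient cells, against 10.7 and 10.5 CPM in parental deficient cells. Its change of -0.36 ± 0.14 (edgeR adjusted p = 0.0496) sat at the threshold and was lost in 12 of 16 alternatives, with values of -0.44 to -0.35 when any deficient or parental proficient library was left out. In proficient cells HOXA10 had 6.77 and 7.24 CPM in resistant proficient cells, against 7.54 and 7.61 CPM in parental proficient cells, a change of -0.11 ± 0.15 that did not pass (edgeR adjusted p = 0.548). Of the Müllerian series, HOXA11 and HOXA13 thus moved in opposite directions in both derivatives, HOXA11 lower and HOXA13 higher.

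Of the 3′ HOXA genes HOXA2 to HOXA5, which act in the hindbrain, pharyngeal arches and lung, 1 was called in a resistance comparison. HOXA3, a gene of thymus and parathyroid formation, had 3.3 and 3.96 CPM in resistant proficient cells, against 6.69 and 6.4 CPM in parental proficient cells, a change of -0.85 ± 0.19 (edgeR adjusted p = 0.00302). In deficient cells it had 4.29 and 3.96 CPM in resistant deficient cells, against 3.06 and 3.5 CPM in parental deficient cells, a change of 0.33 ± 0.19 that did not pass (edgeR adjusted p = 0.175). HOXA2, a selector gene of the pharyngeal arches, had 1.51 and 0.752 CPM in resistant deficient and 0.592 and 0.373 CPM in parental deficient libraries, and 0.937 and 0.791 CPM in resistant proficient and 0.242 and 0.657 CPM in parental proficient libraries. HOXA2 missed the threshold in both comparisons (1.22 ± 0.52 in deficient and 0.91 ± 0.56 in proficient cells, edgeR adjusted p = 0.066 and 0.191) and passed in deficient cells with the GC trend removed (1.44, adjusted p = 0.0192), with no filter on low counts (1.20, adjusted p = 0.0269) and without resistant deficient replicate 2 (1.62). HOXA4 had 3.82 and 2.78 CPM in resistant deficient and 2.99 and 2.81 CPM in parental deficient libraries, and 3.16 and 2.54 CPM in resistant proficient and 3.35 and 3.46 CPM in parental proficient libraries. HOXA5, a lung patterning gene, had 2.2 and 2.14 CPM in resistant deficient and 2.2 and 2.44 CPM in parental deficient libraries, and 4.55 and 3.12 CPM in resistant proficient and 3.23 and 3.08 CPM in parental proficient libraries. Neither HOXA4 nor HOXA5 passed, with edgeR adjusted p of 0.541 and 0.753 in deficient and 0.397 and 0.328 in proficient cells.

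In HOXD, HOXD1 and the middle-numbered HOXD4 fell and the high-numbered HOXD9 and HOXD13 rose in both derivatives. For HOXD9 the call in deficient cells depended on the treatment of GC content. HOXD1, which in mice acts in pain-sensing neurons, had 3.6 and 4.22 CPM in resistant deficient cells, against 6.61 and 7.32 CPM in parental deficient cells, a change of -0.83 ± 0.17 (edgeR adjusted p = 0.00156). In proficient cells HOXD1 had 6.25 and 6.24 CPM in resistant proficient cells, against 10.3 and 10.7 CPM in parental proficient cells, a change of -0.75 ± 0.16 (edgeR adjusted p = 0.00239). HOXD4, a hindbrain and neck gene, had 3.92 and 4.48 CPM in resistant deficient cells, against 9.94 and 9.21 CPM in parental deficient cells, a change of -1.18 ± 0.17 (edgeR adjusted p = 0.000142). HOXD1 and HOXD4 were thus called lower in both derivatives. In proficient cells HOXD4 had 5.07 and 5.37 CPM in resistant proficient cells, against 7.7 and 8.54 CPM in parental proficient cells, a change of -0.64 ± 0.17 (edgeR adjusted p = 0.00725) that was lost without parental proficient replicate 2 (-0.57) or resistant proficient replicate 1 (-0.55). HOXD3, which in mice patterns the neck vertebrae, had 0.792 and 0.347 CPM in resistant deficient cells, against 3.62 and 3.27 CPM in parental deficient cells, a change of -2.63 ± 0.36 (edgeR adjusted p = 0.000118). In proficient cells the libraries of HOXD3 overlapped, at 2.12 and 2.25 CPM in resistant proficient and 2.18 and 3.21 CPM in parental proficient cells (change -0.31 ± 0.32, edgeR adjusted p = 0.431).

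HOXD9 and HOXD11, limb and trunk genes, stood at the other end. HOXD9 had 5.55 and 4.48 CPM in resistant deficient cells, against 2.17 and 2.27 CPM in parental deficient cells, a change of 1.17 ± 0.21 (edgeR adjusted p = 0.000764), and this change was 0.41 (adjusted p = 0.114) once the trend with GC content had been removed. In proficient cells HOXD9 had 4.93 and 5.41 CPM in resistant proficient cells, against 2.22 and 1.87 CPM in parental proficient cells, a change of 1.34 ± 0.22 (edgeR adjusted p = 0.000343). HOXD11 had 2.81 and 3.12 CPM in resistant proficient cells, against 1.01 and 1.76 CPM in parental proficient cells, a change of 1.08 ± 0.34 (edgeR adjusted p = 0.0193) that was lost without parental proficient replicate 1 (0.78), without resistant proficient replicate 2 (1.04) and with DESeq2. In deficient cells HOXD11 had 0.90 and 0.868 CPM in resistant deficient cells, against 0.329 and 0.602 CPM in parental deficient cells, which did not pass (0.90 ± 0.42, edgeR adjusted p = 0.089). HOXD8 lies between the falling and the rising genes. It had 11.1 and 9.95 CPM in resistant proficient cells, against 13.5 and 13.7 CPM in parental proficient cells, a change of -0.37 ± 0.14 (edgeR adjusted p = 0.0488) that was lost in 14 of 16 alternatives, with values of -0.40 to -0.25 when any 1 library was left out. In deficient cells HOXD8 had 6.16 and 6.48 CPM in resistant deficient cells, against 6.88 and 6.37 CPM in parental deficient cells and did not pass (-0.07 ± 0.15, edgeR adjusted p = 0.73), while with the GC trend removed it was called lower (-0.46, adjusted p = 0.0106).

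HOXC was close to silent, and its few counts lay mostly in resistant deficient cells. HOXC13, a hair and nail gene at the 5′ end, had 22 and 16 counts in resistant deficient libraries and 0 in the other 6, at least 13.3-fold higher than in parental deficient cells against a floor of 3 counts over the group (edgeR adjusted p = 0.0027), a call that DESeq2 did not give (adjusted p = 0.241). HOXC13 passed the filter on low counts only through its resistant deficient libraries, so a difference was largely fixed in advance and the p-value lends it no support. Further along the cluster, HOXC11 and HOXC10 had 19 and 8 counts in resistant deficient cells against 0 of either in parental deficient cells. These were at least 6.63-fold and 2.79-fold higher. HOXC12, numbered between HOXC11 and HOXC13, had only 0 and 1 counts in the resistant deficient libraries. HOXC10, HOXC11 and HOXC12 were not tested. HOXC4 had 1.26 and 0.55 CPM in resistant deficient cells, against 0.822 and 0.631 CPM in parental deficient cells, and was lower in the proficient cells, at 0.139 and 0 CPM in resistant proficient and 0.0806 and 0.0691 CPM in parental proficient cells. Between backgrounds HOXC4 differed by -3.21 ± 0.84 in parental proficient against parental deficient cells and by -3.50 ± 0.82 in resistant proficient against resistant deficient cells (edgeR adjusted p = 0.006 and 0.00247), and the second value was -7.70 without resistant proficient replicate 1. It passed in neither resistance comparison (edgeR adjusted p = 0.675 in deficient and 0.999 in proficient cells). HOXC4, HOXC5 and HOXC6 share a first exon in some transcripts, so their split is uncertain.

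Whether resistance changed a member unequally in deficient and proficient cells was tested by the interaction term of the edgeR fit. It passed for 10 of the 27 tested members, 9 with a higher and 1 with a lower effect in proficient cells (33.3% and 3.7%), beside 21.4% higher and 25.3% lower of all genes tested (46.7% in either direction). Of the 8 tested HOXB members, 6 were among the 9. HOXB6 and HOXB13, at 0 counts in parental proficient cells, did not pass (4.80 ± 2.80 and 4.52 ± 1.83, edgeR adjusted p = 0.189 and 0.0666). For HOXB4, HOXB7, HOXB8 and HOXB9 both effects were rises, and the proficient one was the larger, though for HOXB8 the difference did not pass without parental deficient replicate 1 (3.68). For HOXB2, HOXB3, HOXA7 and HOXD10 the effects had opposite signs, each past its own threshold. HOXD3 fell in the deficient cells and did not pass in the proficient ones, and HOXA3 was the 1 member with the lower effect in proficient cells. HOXD9, HOXD13 and HOXA13 rose in both backgrounds, and the interaction did not pass for them (0.17 ± 0.30, -0.20 ± 0.56 and -1.45 ± 0.70, edgeR adjusted p = 0.678, 0.794 and 0.111). The interaction passed, once the GC trend was removed, for HOXD9 (0.90, adjusted p = 0.0236) and for HOXD4 (0.78, adjusted p = 0.0082, against 0.54 and 0.0792 with the trend left in).

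**Figure D4:**
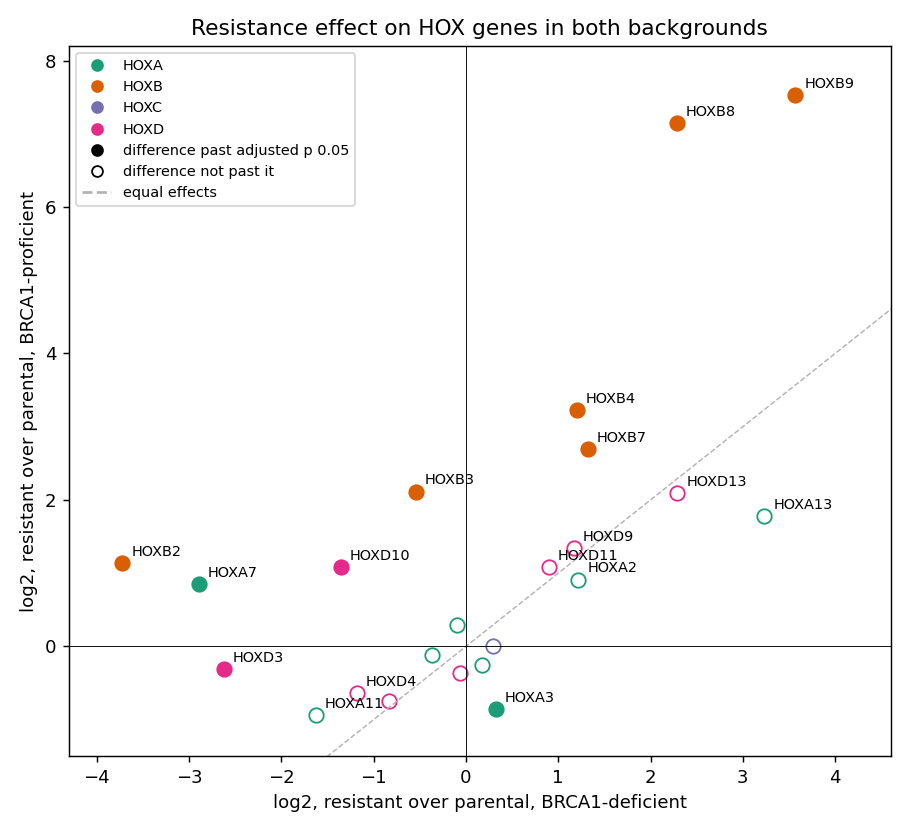
Fitted log2 fold change of resistant over parental cells in the deficient (x axis) and the proficient background (y axis) for 23 tested HOX genes, coloured by cluster; filled points passed the test of the difference and the dashed line marks equal effects. Of the others, HOXB6, HOXB13 and HOXC13 are not drawn because a parental group was at 0 counts, and all filled points but HOXA3 lie above the line.

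The parents themselves differed. In parental proficient against parental deficient cells, 7 of 27 tested members were higher and 9 lower (25.9% and 33.3%), beside 32.3% and 30.1% of all genes tested. Of the 8 tested HOXB members, 0 were higher by edgeR (0 at an unadjusted p under 0.05, 0 by DESeq2) and 6 were lower, among them HOXB9 at 0.0806 and 0.0691 CPM in parental proficient and 2.11 and 2.47 CPM in parental deficient cells, a difference of -4.87 ± 0.33 (edgeR adjusted p = 4.47e-07). HOXB2 (-1.73), HOXB4 (-1.10), HOXB7 (-1.07) and HOXB3 (-0.86) were also lower, and HOXB13 was lower on 0 counts in proficient against 6 in deficient cells. The HOXB13 call was lost in 12 of the 14 alternatives in which it was tested, among them the fits without any 1 of the 8 libraries. The higher members lay in HOXA and HOXD. HOXA13 was higher by 2.92 ± 0.57 (edgeR adjusted p = 0.00103), HOXD10 by 2.36 ± 0.35 (edgeR adjusted p = 0.000148) and HOXD8 by 1.04 ± 0.15 (edgeR adjusted p = 8.77e-05).

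In resistant proficient against resistant deficient cells, 12 of 27 were higher and 3 lower (44.4% and 11.1%), beside 36.3% and 37.5% of all genes tested. These comparisons share libraries with the resistance comparisons, so they are the same levels read another way. HOXA7 (4.93 ± 0.48), HOXD10 (4.80 ± 0.40), HOXB8 (3.47 ± 0.36) and HOXB2 (3.13 ± 0.42) were higher in resistant proficient cells, with edgeR adjusted p from 8.48e-07 to 3.98e-05. The lower members were HOXB9, with -0.91 ± 0.14 (edgeR adjusted p = 9.25e-05) and -0.59 with the GC trend removed, HOXC4 and HOXC13. HOXC13 was tested only through its counts in resistant deficient cells, so that call lends a difference no support. HOXB9 was thus the 1 HOXB member lower in resistant proficient than in resistant deficient cells, and HOXB7 did not pass between them (0.30 ± 0.14, edgeR adjusted p = 0.0735). With the GC trend removed, HOXD9 (1.42, adjusted p = 4.32e-06, against 0.05 and 0.845 with it left in) and HOXD4 (0.98, adjusted p = 4.83e-05, against 0.31 and 0.127) were also higher in resistant proficient cells.

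HOX proteins bind DNA with TALE homeodomain partners, of which 10 of 12 listed were tested. In resistant deficient cells 2 rose and 2 fell (20% and 20%, beside 28.9% and 27% of all genes tested), and in resistant proficient cells 3 rose and 3 fell (30% and 30%, beside 25.9% and 27.8%), with list medians of -0.05 and -0.23 beside 0.03 and -0.00 for all genes. MEIS1, a cofactor of HOXA and HOXB proteins, had 5.51 and 5.61 CPM in resistant deficient cells, against 12.9 and 14 CPM in parental deficient cells, a change of -1.27 ± 0.14 (edgeR adjusted p = 2.45e-05). In proficient cells MEIS1 had 17.7 and 17.2 CPM in resistant proficient cells, against 11.8 and 10.5 CPM in parental proficient cells, a change of 0.65 ± 0.13 (edgeR adjusted p = 0.00165). MEIS1 thus fell in the derivative where HOXB2, HOXB3, HOXA7 and HOXD10 fell, and rose in the derivative where those rose. Other members did not go with it. HOXB4, HOXB7, HOXB8, HOXB9, HOXB13, HOXA13, HOXD9 and HOXD13 rose in both derivatives, and HOXA11, HOXD1 and HOXD4 fell in both. A link between MEIS1 and any member was not tested. The repressor genes TGIF2 and TGIF1 fell in resistant proficient cells (-1.09 and -0.70), and TGIF1 rose in resistant deficient cells (0.21), where TGIF2 did not pass (0.01).

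The chromatin regulators of HOX clusters moved in both directions. Of 31 Polycomb genes, all tested, 7 rose and 11 fell in resistant deficient cells (22.6% and 35.5%, beside 28.9% and 27% of all genes tested), with a median of 0.04. In resistant proficient cells 6 rose and 15 fell (19.4% and 48.4%, beside 25.9% and 27.8%), with a median of -0.29. With the GC trend removed, 11 rose and 11 fell in resistant deficient cells. EZH2, the catalytic subunit that methylates H3K27, had 76.2 and 83.9 CPM in resistant proficient cells, against 187 and 181 CPM in parental proficient cells, a change of -1.20 ± 0.07 (edgeR adjusted p = 2.33e-07). In deficient cells it had 94.1 and 103 CPM in resistant deficient cells, against 130.4 and 135 CPM in parental deficient cells, a change of -0.43 ± 0.07 (edgeR adjusted p = 0.000533) that was -0.13 with the GC trend removed. EED, another core subunit of that complex, fell in both (-0.80 and -0.87, edgeR adjusted p = 2.2e-05 and 8.51e-06), as did YAF2, of the H2A-ubiquitin branch (-1.13 and -1.18). The deficient values with the GC trend removed were -0.51 for EED and -0.65 for YAF2. PCGF3, of that branch too, was up in the resistant deficient group (0.67, edgeR adjusted p = 2.06e-05).

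Of 22 trithorax, MLL and H3K27 demethylase genes, 8 rose and 7 fell in resistant deficient cells (36.4% and 31.8%, beside 28.9% and 27% of all genes tested), with a median of 0.03. In resistant proficient cells 5 rose and 7 fell (22.7% and 31.8%, beside 25.9% and 27.8%), with a median of -0.01. KDM6A, an H3K27 demethylase, rose in both (0.49 and 0.89, edgeR adjusted p = 0.000414 and 4.96e-06), and MLLT10, a partner of the H3K79 methyltransferase, fell in both (-0.81 and -1.39). The deficient values with the GC trend removed were 0.82 for KDM6A and -0.50 for MLLT10. RBBP5, a core subunit of MLL complexes, fell in resistant deficient cells (-0.98), and MLLT3, an elongation factor subunit, rose in resistant proficient cells (1.70). Of 8 loop factors, 1 rose and 2 fell in resistant deficient cells (12.5% and 25%), and 0 rose by edgeR (0 at an unadjusted p under 0.05, 0 by DESeq2) and 4 fell in resistant proficient cells (0% and 50%). With the GC trend removed the split in resistant deficient cells was 6 up and 1 down. The cohesin subunit gene STAG2 fell in both (-0.60 and -1.15), with -0.16 in resistant deficient cells once the GC trend was removed. RAD21, of the same ring, fell in resistant proficient cells (-0.54) and by 0.29 in resistant deficient cells, where it was 0.05 and not called with the GC trend removed.

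Of 19 genes of retinoic acid synthesis, transport and response, 14 were tested. In resistant deficient cells 4 rose and 7 fell (28.6% and 50%, beside 28.9% and 27% of all genes tested), with a median of -0.51. In resistant proficient cells 4 rose and 4 fell (28.6% and 28.6%, beside 25.9% and 27.8%), with a median of 0.28. With the GC trend removed, 2 rose and 6 fell in resistant deficient cells. ALDH1A2, which makes retinoic acid, had 15.4 and 14.4 CPM in resistant proficient cells, against 1.81 and 1.66 CPM in parental proficient cells, a change of 3.10 ± 0.20 (edgeR adjusted p = 3.3e-07), and did not pass in deficient cells (-0.27, edgeR adjusted p = 0.571). RARG, a retinoic acid receptor, fell in both (-0.53 and -1.82, with -1.04 in resistant deficient cells once the GC trend was removed), and so did FABP5, a fatty acid and retinoic acid carrier (-0.94 and -0.63).

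Of 17 antisense and other noncoding RNA rows inside the clusters, 7 were tested. In resistant deficient cells 0 rose by edgeR (0 at an unadjusted p under 0.05, 0 by DESeq2) and 3 fell, where the edgeR test gave adjusted p of 0.00108 for HOXB-AS1, 0.00325 for HOXD-AS2 and 0.00955 for HAGLROS, and 1 rose and 1 fell in resistant proficient cells. The 3 falls were 42.9% of the 7, beside 27% of all genes tested that were lower, and the rise and the fall were 14.3% each, beside 25.9% and 27.8%. The list median was -0.82 in deficient and 0.12 in proficient cells. HOXD-AS2 had 0.144 and 0.0578 CPM in resistant deficient cells, against 0.855 and 0.488 CPM in parental deficient cells (-2.73 ± 0.62), and did not pass in proficient cells. HOTAIRM1, transcribed at the 3′ end of HOXA, had 4.93 and 5.0 CPM in resistant proficient cells, against 11.4 and 10.3 CPM in parental proficient cells, a change of -1.13 ± 0.16 (edgeR adjusted p = 0.000104), and did not pass in deficient cells (edgeR adjusted p = 0.995). The 7 microRNA rows of the clusters held at most 3 counts in any library and were not tested.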

How the data were processed

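Total RNA of the 8 libraries had been sequenced, and the deposited values are whole-number counts for 32803 gene symbols, not normalised. Per the submitters' processing notes, Trimmomatic 0.39, Subread 2.0.1, featureCounts and DESeq2 1.24.0 were named, with build GRCh37. Their roles, the annotation, the strand setting and the handling of multimapped reads were not given in the sources used here. The HOX members with overlapping or antisense transcripts, such as HOXA3, HOXA9, HOXA10 and HOXC4 to HOXC6, are uncertain for that reason. Of the sample columns, 0 were left unused.

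Titles gave each library its BRCA1 state, resistance, passage and replicate. The title of resistant deficient replicate 2 spelled the resistance prefix unlike the other resistant titles, and that library was taken as resistant. The labels do not call replicates separate cultures, so a p-value reflects the spread of these libraries alone, which may be technical. Replicates differed beyond sampling noise (chi-square per degree of freedom 4.21 to 22.5).

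From the counts, edgeR 4.0.16 in R 4.3.3 was run with TMM factors, filterByExpr (16221 genes kept) and 1 quasi-likelihood fit of the 4 groups without covariates (4 residual degrees of freedom). Benjamini-Hochberg adjustment covered the 16221 genes, and the SE is the log2 fold change divided by the root of F. Floors of 3 counts cover counting error only, since no molecular identifiers are recorded. Per-kilobase values used the principal transcript of GENCODE v29. The alternatives tried were library totals alone, RLE factors, a filter of 1 CPM in 2 libraries, no filter, DESeq2 1.42.0, fits of 2 groups, the replicate block, removal of the GC trend (natural spline with 5 degrees of freedom, 15378 genes with a GC value) and each library left out. The fit was tested on simulated data. All 39 members enter the counts, with values per library for those at a mean of 1 CPM or more in any group, and up to 4 members of each other list with the smallest p were named, plus RNAs and genes beside a member. Of the genes taken by this rule, 1 member and some list genes are not reported here. HOXB6, HOXB13, HOXB5 and the HOXC genes lie below that level and were named after their values were seen. Members, lists and tests were chosen with earlier results of these data known.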

Additional observations from a re-analysis of the deposited data

Results flagged for a closer look

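The 10 members below had resistance effects that differed between the BRCA1 backgrounds by the interaction term of edgeR (proficient effect minus deficient effect, log2, n = 2 libraries per group). In HOXB, the difference was 4.86 ± 0.54 (edgeR adjusted p = 3.53e-05) for HOXB2 and 2.66 ± 0.23 (edgeR adjusted p = 5.27e-06) for HOXB3, which rose in resistant proficient and fell in resistant deficient cells. It was 2.03 ± 0.24 (edgeR adjusted p = 5.11e-05) for HOXB4, 1.37 ± 0.21 (edgeR adjusted p = 0.000377) for HOXB7, 4.86 ± 0.99 (edgeR adjusted p = 0.00213) for HOXB8 and 3.96 ± 0.39 (edgeR adjusted p = 1.63e-05) for HOXB9, which rose in both derivatives. The HOXB8 value was 9.06 without parental proficient replicate 2 and 3.68, no longer past the threshold (adjusted p = 0.0565), without parental deficient replicate 1. Outside HOXB, it was 3.74 ± 0.65 (edgeR adjusted p = 0.000805) for HOXA7 and 2.44 ± 0.58 (edgeR adjusted p = 0.00559) for HOXD10, which rose in resistant proficient and fell in resistant deficient cells. HOXD3 had a difference of 2.31 ± 0.48 (edgeR adjusted p = 0.00248) and HOXA3 one of -1.18 ± 0.27 (edgeR adjusted p = 0.0046). Among all genes tested, 46.7% passed this test in either direction, so a difference between the backgrounds was common. BRCA1 itself was among them (3.53 ± 0.10, edgeR adjusted p = 1.66e-09).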

How the results depend on the processing

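Of the 37 calls made for members in both resistance comparisons, 22 passed under every alternative in which the member was tested, 15 lost the call under at least 1, and 0 changed sign. The replicate numbers did not pair the libraries (correlations of same-numbered deviations from -0.132 to 0.212), and with the replicate block the counts of members up and down were 10 and 8 for resistant deficient and 13 and 4 for resistant proficient against their parents. DESeq2 gave 7 up and 7 down for the deficient and 12 up and 3 down for the proficient comparison, and 0.05 was the threshold throughout. Members down in resistant proficient cells numbered 5 in the fit reported and 3 to 4 without any 1 library. Members higher in parental proficient than parental deficient cells numbered 4 to 7 without any 1 library, with 4 without parental deficient replicate 1. Members lower in resistant proficient than resistant deficient cells numbered 1 under the filter of 1 CPM, which tested 22 members.

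The values below changed sign under an alternative, and passed neither in the fit reported nor where the sign had changed. In the deficient resistance comparison they were HOXA4 (-0.12), HOXA5 (0.076) and HOXD11 (-0.11) with the GC trend removed, HOXA4 (-0.091 to 0.37) over the fits without 1 library, and HOXC4 (-0.42 to 0.77). HOXC4 in the proficient comparison was -0.0029 with DESeq2, -0.091 with the replicate block and -4.19 to 0.90 without 1 library. Without 1 library, HOXD9 between the resistant groups ran from -0.070 to 0.23, and with the GC trend removed it was 1.42, past the threshold. HOXB6, whose parental proficient libraries were at 0 so that fitted values depend on the prior count, ran from -6.27 to 0 between the parents and from -0.43 to 5.87 for the interaction. The cause of these changes was not tested.

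Tested HOX members had a median transcript GC content of 55.3%, beside 48.8% for all genes. Across 15378 genes the Spearman correlation of log2 fold change with GC was 0.463 in the deficient and 0.0810 in the proficient resistance comparison. It was -0.525 in resistant proficient against resistant deficient cells, -0.448 in parental proficient against parental deficient cells and -0.306 for the interaction, as a description. With the GC trend removed, 10 members were up and 9 down in resistant deficient and 13 and 5 in resistant proficient cells. Depth limits what can be said of members under 1 CPM.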

Other observations

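PDX1, a pancreatic homeobox gene of the ParaHox cluster, which is the evolutionary sister of the HOX clusters, had 2.63 and 2.0 CPM in resistant deficient cells, against 0.0329 and 0.201 CPM in parental deficient cells, a change of 4.20 ± 0.58 (edgeR adjusted p = 0.000134). In proficient cells it had 0.694 and 0.416 CPM in resistant proficient cells, against 0.323 and 0.138 CPM in parental proficient cells and did not pass (1.31 ± 0.64, edgeR adjusted p = 0.109). Of the 8 ParaHox and EVX genes listed, 2 were tested. Of the 15 Müllerian and ovarian carcinoma markers, 13 were tested. In resistant deficient cells 4 rose and 5 fell (30.8% and 38.5%, beside 28.9% and 27% of all genes tested). In resistant proficient cells 5 rose and 2 fell (38.5% and 15.4%, beside 25.9% and 27.8%). With the GC trend removed, 2 rose and 7 fell in resistant deficient cells. FOLR1, a folate receptor of Müllerian epithelium, fell in both derivatives (-3.53 in deficient and -3.23 in proficient cells, edgeR adjusted p = 8.62e-07 and 3.6e-07). MUC16, the gene of the CA125 antigen, rose in both, with 0.19 (edgeR adjusted p = 0.0386, and 0.35 with the GC trend removed) in resistant deficient and 3.28 (edgeR adjusted p = 2.96e-10) in resistant proficient cells.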
